A study of Mus musculus with 8 samples.

Results

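Tshz2, Zmiz1, Sdk2, Egfem1, Trpv6, Tnnt2, Vill and Prr36 are 8 protein-coding genes with a higher RNA level in the brain cortex of high fat diet fed mice than in normal mice. They are 8 of the 13996 genes with deposited expression values. They were chosen by those same values, for a marked rise from the 4 normal to the 4 high fat diet fed mice. Their diet differences are therefore a description and carry no test. The filter on low values, a mean of at least 1 FPKM over the 8 mice and no 0 in any mouse, was passed by 13982 genes and by all 8 of these. Trpv6 passed it only through the high fat diet, since its mean was 0.5 FPKM in normal mice.

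The study measured how a high fat diet changes the RNAs of the mouse cortex. All mice were male C57BL/6 mice obtained when 8 weeks old. For 8 weeks, 4 of them had a conventional diet (normal mice) and 4 had a diet with 60% fat by weight (high fat diet fed mice, or HFD mice), until all were 16 weeks old. Each library is a separate mouse, and was made with a stranded kit from total RNA of the cortex without rRNA. The authors gave levels as FPKM (fragments per kilobase of transcript, scaled to the depth of the library), which allows levels of different genes to be set side by side. The values are rounded to 0.1, and their sums per mouse lay between 562431 and 639142. Read numbers are not given with FPKM, and the depth is unknown.

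The cortex is built of layers of excitatory neurons, with inhibitory neurons, glia and vessels between them. Transcription factors set the identity of the neurons in each layer, adhesion molecules guide which neurons form synapses with each other, and channels, pumps and calcium-binding proteins shape calcium signals. Among the genes described here, Tshz2 and Zmiz1 act on transcription, and Sdk2 and Egfem1 encode a cell surface protein and a protein with extracellular domains. Trpv6, Tnnt2 and Vill belong to calcium entry, calcium-controlled contraction and the actin cytoskeleton, and are best known outside the brain. The function of Prr36 is little known.

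The 8 genes were not the 8 largest increases. Ranked by the difference between the diet means of log2(FPKM + 0.1) among 13982 genes, Vill was at 6, Prr36 at 7, Trpv6 at 10, Tshz2 at 12, Tnnt2 at 33, Sdk2 at 54, Egfem1 at 78 and Zmiz1 at 95. Above Zmiz1 stood 87 genes that were not chosen, 31 of them protein-coding. Of the 10 largest increases without overlap between the diets and with an adjusted p below 0.05 by limma, 4 were Vill, Prr36, Trpv6 and Tshz2. The other 6 were Bglap3, the pseudogenes Pisd-ps1, Pisd-ps2 and RP24-63O23.2, the transcript RP23-462F16.1 and Plin4, which encodes a coat protein of lipid droplets. Bglap3, a relative of the bone protein osteocalcin, had the largest difference, 3.48 on the log2(FPKM + 0.1) scale (standard error 0.42), from 0.55 to 6.35 FPKM. Just above Zmiz1, which had the smallest difference of the chosen genes, stood RP23-14P23.9 and Tbr1. The set is therefore best named by its rule, as genes chosen for a marked rise.

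Diet differences were widespread in the whole table. With limma, 2480 of 13982 genes (17.7%) were higher in HFD mice and 2146 (15.3%) lower at an adjusted p below 0.05. A change of more than 50% was also reached by 591 of the higher genes (4.23% of those tested) and 406 of the lower ones (2.9%). All 4 high fat diet fed mice lay above all 4 normal mice for 2404 genes (17.2%), and the log2(FPKM + 0.1) difference was over 1 for 112 genes (0.801%). All 8 chosen genes met each of the criteria for a higher level, which their choice fixed, and nothing is read from it. The median log2 difference over all genes tested was 0.00, which the scaling of FPKM largely sets. In whole tissue, fewer cells of a type and less RNA per cell cannot be told apart.

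**Figure D1:**
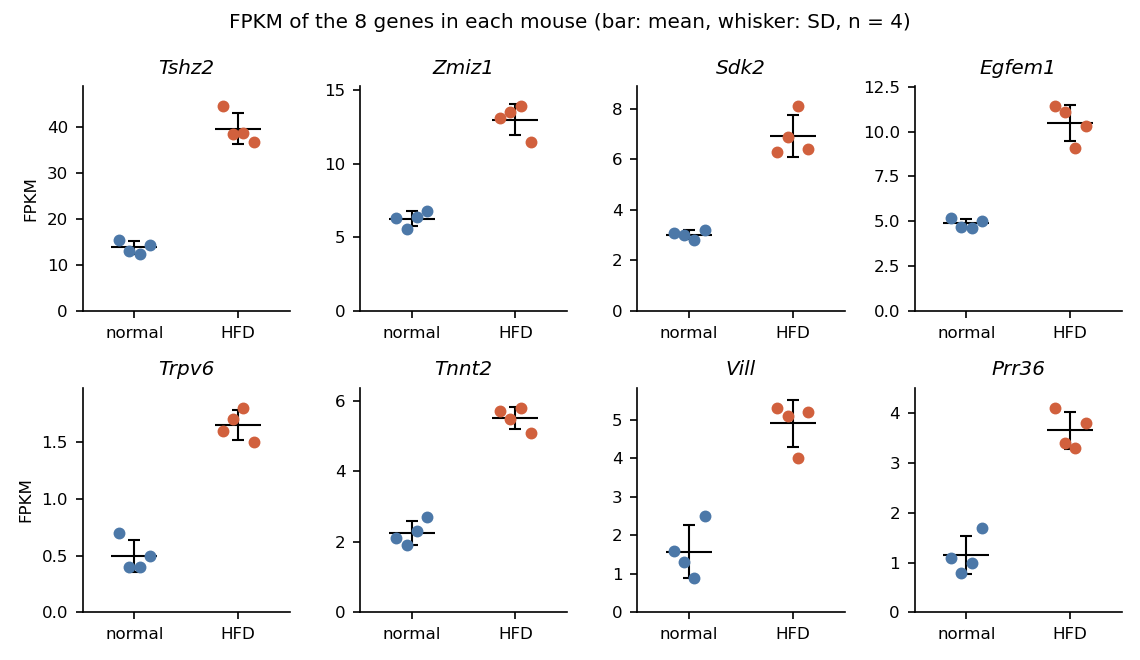
FPKM of each gene in each mouse, with 1 panel per gene and an axis that starts at 0; points are mice, the bar is the mean and the whisker the SD of 4 mice. In every panel the lowest HFD mouse lies above the highest normal mouse, by a factor from 1.6 (Vill) to 2.38 (Tshz2).

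Tshz2 (ENSMUSG00000047907.11) encodes a zinc finger transcription factor of the teashirt family, which in cortex marks near-projecting neurons of the lower layers and is high in the retrosplenial area. It lies on the plus strand of chromosome 2 (chr2:169633013-170071816, build GRCm38) and spans 438804 bp. Its FPKM was 15.4, 13.0, 12.4 and 14.4 in normal mice 1 to 4 and 44.4, 38.4, 38.7 and 36.7 in HFD mice 1 to 4. HFD mouse 1 was the highest of its diet, and the lowest HFD mouse was at 2.38 times the highest normal mouse, the widest separation of the chosen genes by this ratio. Tshz2 averaged 13.8 ± 1.36 FPKM (SD, n = 4) in normal mice and 39.55 ± 3.35 FPKM (SD, n = 4) in HFD mice, a ratio of 2.87 and a log2(FPKM + 0.1) difference of 1.51 (standard error 0.08). Tshz2 was the most abundant of the genes described here, and 78.8% of the genes tested had a lower mean level.

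Zmiz1 (ENSMUSG00000007817.14) encodes a co-regulator of transcription with a zinc finger of the kind found in PIAS proteins, and is known as a partner of Notch1 in T cells. It lies on the plus strand of chromosome 14 (chr14:25459185-25666743, build GRCm38) and spans 207559 bp. Zmiz1 had an FPKM of 6.3, 5.6, 6.4 and 6.8 in normal mice 1 to 4 and of 13.1, 13.5, 13.9 and 11.5 in HFD mice 1 to 4. Normal mouse 2 and HFD mouse 4 were the lowest of their diets, and the diets did not overlap. The mean level was 6.28 ± 0.50 FPKM (SD, n = 4) and 13.0 ± 1.05 FPKM (SD, n = 4), with a ratio of 2.07 and a log2(FPKM + 0.1) difference of 1.04 (standard error 0.08).

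Sdk2 (ENSMUSG00000041592.16) encodes sidekick 2, an adhesion molecule of the immunoglobulin superfamily that binds to itself and directs layer-specific synapses in the retina. The gene is on the minus strand of chromosome 11 (chr11:113776374-114067046, build GRCm38). The levels of Sdk2 were 3.1, 3.0, 2.8 and 3.2 FPKM in normal mice 1 to 4 and 6.3, 6.9, 8.1 and 6.4 FPKM in HFD mice 1 to 4. The normal mice were close to each other, and HFD mouse 3 stood highest. The mean level went from 3.02 ± 0.17 FPKM (SD, n = 4) to 6.92 ± 0.83 FPKM (SD, n = 4), a ratio of 2.29 and a log2(FPKM + 0.1) difference of 1.16 (standard error 0.09).

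Egfem1 (ENSMUSG00000063600.14) encodes a protein with EGF-like and EMI domains, modules of the extracellular matrix, and its role in cortex is little known. It has the longest span of the chosen genes, 609187 bp on the plus strand of chromosome 3 (chr3:29082023-29691209, build GRCm38), and 99.0% of the genes tested span less. Egfem1 was at 5.2, 4.7, 4.6 and 5.0 FPKM in normal mice 1 to 4 and at 11.4, 11.1, 9.1 and 10.3 FPKM in HFD mice 1 to 4. Here HFD mouse 3, the highest for Sdk2, was the lowest of its diet, and the diets did not overlap. The mean level was 4.88 ± 0.28 FPKM (SD, n = 4) in normal and 10.5 ± 1.03 FPKM (SD, n = 4) in HFD mice, a ratio of 2.15 and a log2(FPKM + 0.1) difference of 1.08 (standard error 0.08).

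Trpv6 (ENSMUSG00000029868.13) encodes a calcium-selective channel of the TRP family, known for calcium uptake in gut, kidney and placenta. Its position is the minus strand of chromosome 6 (chr6:41620624-41636405, build GRCm38). In normal mice 1 to 4 its FPKM was 0.7, 0.4, 0.4 and 0.5, and in HFD mice 1 to 4 it was 1.6, 1.7, 1.8 and 1.5. The diets did not overlap, but all values were among the lowest of the table: 1.13% of the genes tested had a lower mean level. The mean level was 0.50 ± 0.14 FPKM (SD, n = 4) and 1.65 ± 0.13 FPKM (SD, n = 4), a ratio of 3.3 and a log2(FPKM + 0.1) difference of 1.57 (standard error 0.19). The rounding step of 0.1 FPKM was 20% of the mean of normal mice, so the ratio is coarse. With an added constant of 1 in place of 0.1, the log2 difference of Trpv6 was 0.82, and with 0.01 it was 1.74.

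Tnnt2 (ENSMUSG00000026414.13) encodes cardiac troponin T, which anchors the calcium-sensing troponin complex to tropomyosin on the thin filament of heart muscle. It lies on the plus strand of chromosome 1 (chr1:135836354-135852260, build GRCm38). Tnnt2 levels were 2.1, 1.9, 2.3 and 2.7 FPKM in normal mice 1 to 4 and 5.7, 5.5, 5.8 and 5.1 FPKM in HFD mice 1 to 4. Normal mouse 4 was the highest normal mouse and HFD mouse 4 the lowest of its diet, still 1.89 times as high. The mean level was 2.25 ± 0.34 FPKM (SD, n = 4) and 5.53 ± 0.31 FPKM (SD, n = 4), a ratio of 2.46 and a log2(FPKM + 0.1) difference of 1.27 (standard error 0.11).

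Vill (ENSMUSG00000038775.14) encodes villin-like, an actin-binding protein of the gelsolin superfamily without an established role in cortex. Vill is on the plus strand of chromosome 9 (chr9:119052778-119071525, build GRCm38). Vill had 1.6, 1.3, 0.9 and 2.5 FPKM in normal mice 1 to 4 and 5.3, 5.1, 4.0 and 5.2 FPKM in HFD mice 1 to 4. The highest normal mouse (mouse 4) was at 2.78 times the lowest (mouse 3), and HFD mouse 3 lay below the rest of its diet. Its mean level was 1.58 ± 0.68 FPKM (SD, n = 4) and 4.9 ± 0.61 FPKM (SD, n = 4), a ratio of 3.11 and a log2(FPKM + 0.1) difference of 1.66 (standard error 0.25), the largest of the chosen genes on that scale. The spread of Vill within a diet was wide, with 93.9% of the genes of like level having a smaller SD of log2(FPKM + 0.1).

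Prr36 (ENSMUSG00000064125.14) encodes a proline-rich protein of unknown function. It lies on the minus strand of chromosome 8 (chr8:4209543-4217459, build GRCm38), and at 7917 bp has the shortest span of the chosen genes. Prr36 was measured at 1.1, 0.8, 1.0 and 1.7 FPKM in normal mice 1 to 4 and at 4.1, 3.4, 3.3 and 3.8 FPKM in HFD mice 1 to 4. As for Vill, normal mouse 4 was the highest normal mouse, and the diets did not overlap. The mean level was 1.15 ± 0.39 FPKM (SD, n = 4) and 3.65 ± 0.37 FPKM (SD, n = 4), a ratio of 3.17 and a log2(FPKM + 0.1) difference of 1.63 (standard error 0.20).

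The order of the mean levels in FPKM was the same in both diets: Tshz2, Zmiz1, Egfem1, Sdk2, Tnnt2, Vill, Prr36 and Trpv6. Tshz2 stood apart, with its lowest mouse 5.6 FPKM above the highest Zmiz1 value in normal mice and 22.8 FPKM above it in high fat diet fed mice. Tnnt2 overlapped with Vill, and Vill with Prr36, in either diet. The remaining neighbours in the order did not overlap, but Zmiz1 and Egfem1 were only 0.1 FPKM apart in high fat diet fed mice, and Sdk2 and Tnnt2, like Prr36 and Trpv6, only 0.1 FPKM in normal mice. Of the 8 genes, 7 had a mean level under that of the median gene, 9.79 FPKM, and Tshz2 alone lay above it.

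**Figure D2:**
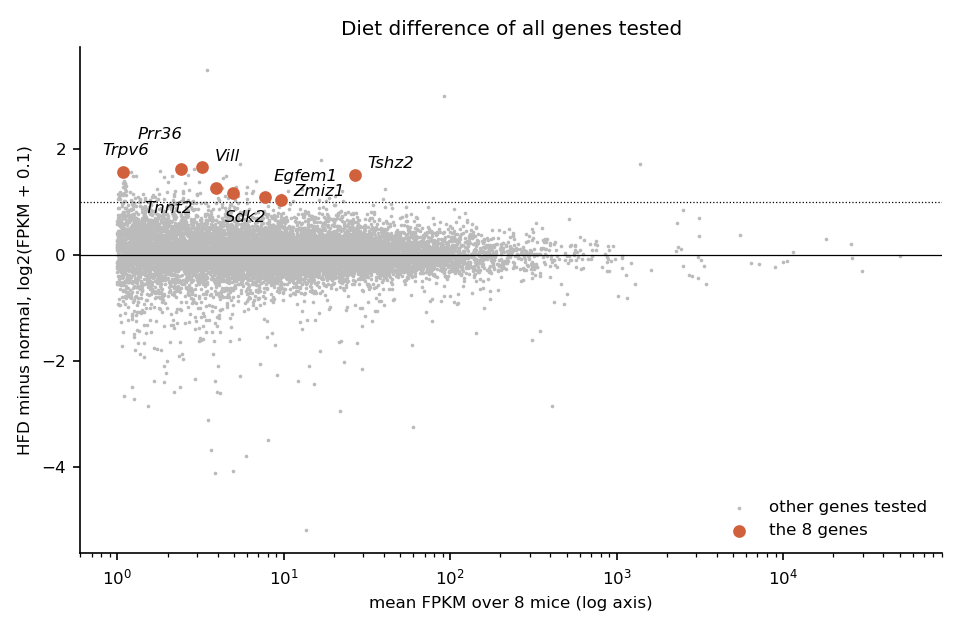
Each point is 1 of 13982 genes, with its mean FPKM over 8 mice on a log axis and its HFD minus normal difference of log2(FPKM + 0.1). The genes described here lie between 1.04 (Zmiz1) and 1.66 (Vill), above the dotted line at 1 that 112 genes exceed, and Tshz2 is the one at the highest level.

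The promoters of the genes were read only for CG dinucleotides and a few short motifs, and their CG numbers differed widely. RefSeq promoters (build GRCm38.p6) were found for all 8 genes, with 10 entries because Egfem1 and Tnnt2 have an entry for each of several starts. Each was read over the 250 bases before the RefSeq start, which can differ from the start in the annotation. The number of CG dinucleotides, which are frequent in the promoters of widely expressed genes and sparse in many tissue-specific ones, ran from 38 in Sdk2 to 0 in the second entry of Tnnt2, with a median of 6 over 32851 promoters. Sdk2 and Zmiz1 are shown as the richest and Tshz2 and Trpv6 as examples with few, 5′ to 3′ on the strand of the gene, with each CG in capitals.
Sdk2: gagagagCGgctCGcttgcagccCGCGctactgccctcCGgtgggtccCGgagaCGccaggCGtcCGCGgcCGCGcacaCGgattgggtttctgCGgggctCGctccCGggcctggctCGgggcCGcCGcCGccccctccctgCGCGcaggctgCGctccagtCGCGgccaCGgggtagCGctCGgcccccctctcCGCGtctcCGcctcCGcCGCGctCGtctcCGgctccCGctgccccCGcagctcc
Zmiz1: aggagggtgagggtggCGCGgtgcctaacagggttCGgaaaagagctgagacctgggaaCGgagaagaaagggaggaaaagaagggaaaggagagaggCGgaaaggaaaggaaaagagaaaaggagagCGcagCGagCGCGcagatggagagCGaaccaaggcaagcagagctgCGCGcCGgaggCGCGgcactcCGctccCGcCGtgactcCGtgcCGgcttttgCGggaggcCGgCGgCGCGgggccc
Tshz2: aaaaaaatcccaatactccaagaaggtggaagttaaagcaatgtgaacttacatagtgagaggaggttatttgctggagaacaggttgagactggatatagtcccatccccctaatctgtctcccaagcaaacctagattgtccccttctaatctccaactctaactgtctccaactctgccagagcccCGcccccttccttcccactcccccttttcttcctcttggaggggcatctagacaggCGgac
Trpv6: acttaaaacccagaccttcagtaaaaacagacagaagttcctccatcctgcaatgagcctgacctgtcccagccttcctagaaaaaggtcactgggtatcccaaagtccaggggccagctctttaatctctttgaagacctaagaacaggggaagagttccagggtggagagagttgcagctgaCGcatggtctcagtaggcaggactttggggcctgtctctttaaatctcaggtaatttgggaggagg
The Sdk2 promoter (minus strand, chr11:114067030-114067279) had 38 CG dinucleotides, more than 98.1% of all promoters. Zmiz1 (plus strand, chr14:25458935-25459184) had 25, more than 89.3% of them. Tshz2 (plus strand, chr2:169632259-169632508) had 2, and 18.8% of promoters had fewer. Trpv6 (minus strand, chr6:41636406-41636655) had 1, and 7.87% of promoters had fewer. The genes with a large increase in FPKM thus had promoters at both ends of this scale.

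Searched on both strands, the TATA box letters TATAAA were in none of the 10 entries and in 12.4% of all promoters. CCAAT (33.8% of all promoters) was in an entry of Egfem1, Sdk2, Tnnt2 and Tshz2, and GGGCGG (32.7%) in an entry of Egfem1, Sdk2 and Tshz2. CATTCC, the core of the M-CAT element first described in the promoter of chicken cardiac troponin T, was in the first entry of Tnnt2 and in none of the rest, and in 12.6% of all promoters. That entry (plus strand, chr1:135836084-135836333) is shown because the element was defined in the same gene, with CATTCC in capitals at bases 27 to 22 before the start.
Tnnt2: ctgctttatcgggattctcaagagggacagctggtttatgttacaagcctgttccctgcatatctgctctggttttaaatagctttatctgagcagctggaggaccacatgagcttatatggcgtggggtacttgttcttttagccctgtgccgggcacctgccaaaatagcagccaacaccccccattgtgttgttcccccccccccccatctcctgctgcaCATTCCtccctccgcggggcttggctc
These are matches of letters and not measured binding sites.

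Within a diet the genes were compared mouse by mouse, a measure that the choice did not use. After the diet means were subtracted from log2(FPKM + 0.1), the 28 pairs of genes had a median Pearson r of 0.387 over the 8 mice, and r was positive in 27 pairs. Spearman rho was positive in 18 pairs, 0 in 4 and negative in 6. Once the 2 mice most distant from the median of the first gene of the pair were dropped, r was negative in 6 pairs. Among these, Egfem1 and Sdk2 already had a negative r over all 8 mice (-0.485, exact permutation p = 0.387, adjusted p = 0.678). Exact two-sided permutation within the diets over all arrangements, whose smallest p is 0.00174, gave 0 pairs with an adjusted p below 0.05 by Pearson or by Spearman correlation, and 2 pairs with an unadjusted p below 0.05 by each. Zmiz1 and Tnnt2 had the highest r, 0.844 (exact permutation p = 0.00521, adjusted p = 0.146 over 28 pairs; Spearman rho 0.9, p = 0.0243, adjusted p = 0.34), and 0.712 without the 2 most distant mice. Prr36 and Tnnt2 had an r of 0.791 (exact permutation p = 0.122, adjusted p = 0.556) but a rho of 0.2 (p = 0.733, adjusted p = 1). Vill and Prr36 had an r of 0.787 (exact permutation p = 0.139, adjusted p = 0.556; Spearman rho 0.9, p = 0.0243, adjusted p = 0.34), and 0.912 without the 2 most distant mice. The r of Vill and Trpv6 went from 0.352 (exact permutation p = 0.639, adjusted p = 0.894) to -0.931 without the 2 most distant mice, and that of Prr36 and Trpv6 from 0.242 (p = 0.726, adjusted p = 0.899) to -0.939. No pair was past the threshold, so shared variation from mouse to mouse within a diet was not shown.

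The genes whose deviations from the diet means were most like those of each gene were searched among 9638 genes with a mean of at least 5 FPKM, with Pearson r over 8 mice as a description. For Tshz2 they were the glucose transporter gene Slc2a6 (r = 0.966) and the small nuclear RNA Gm25360 (r = 0.965), and for Zmiz1 Fbxl20 (r = 0.976) and the histone methyltransferase gene Nsd3 (r = 0.975). Sdk2 was most like Sipa1l3 (r = 0.979) and Mypop (r = 0.976), and Egfem1 most like the TGF-beta receptor gene Tgfbr1 (r = 0.992) and Zfand3 (r = 0.973). The best matches of Trpv6 were RP23-92G13.7 (r = 0.981) and Chst2 (r = 0.975), and those of Tnnt2 Zfyve27 (r = 0.957) and Prrc2b (r = 0.943). Vill came closest to the interferon-gamma receptor gene Ifngr2 (r = 0.990) and Cinp (r = 0.990). Prr36 came closest to the sodium-calcium exchanger gene Slc8a1 (r = 0.980) and Snx10 (r = 0.971). Tshz2, Egfem1 and Zmiz1 were themselves among the genes searched and were best matches of none of the rest, while the others were at too low a level to be searched. These best matches were picked from a large search, and the highest of 9638 values of r is high by selection.

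The neighbours of the genes on the chromosomes were read next. Of 20 overlapping or nearest genes tested, 7 were higher and 3 lower at an adjusted p below 0.05 by limma. Of all genes tested, 17.7% were higher and 15.3% lower, and the median log2(FPKM + 0.1) difference of the 20 neighbours was 0.12. The higher neighbours include RP24-211P23.2, RP24-204F16.4, Zmiz1os1 and Evi5l, which overlap chosen genes and can share reads with them. Their rise can thus repeat in part the values used for the choice, and no excess over all genes is read from the count. Inside introns of Egfem1, on the same strand and without overlap with its exons, lie RP24-211P23.2 and RP24-204F16.4, which the annotation lists as TEC, a class of transcripts awaiting experimental evidence. RP24-211P23.2 rose from 1.33 to 3.95 FPKM, with a log2 difference of 1.51 (standard error 0.14, adjusted p = 0.000336 by limma, 4 of 4 high fat diet fed mice above all normal mice). RP24-204F16.4 rose from 1.35 to 3.03 FPKM, with a log2 difference of 1.11 (standard error 0.12, adjusted p = 0.000695 by limma). Reads of these transcripts and of unspliced Egfem1 RNA cannot be told apart.

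Zmiz1os1, an antisense RNA that shares 372 bp with the exons of Zmiz1, rose from 0.9 to 1.63 FPKM, a log2(FPKM + 0.1) difference of 0.77 (standard error 0.17, adjusted p = 0.00827 by limma). Evi5l, which shares 1494 bp with the exons of Prr36 on the opposite strand, was at 29.4 FPKM in normal and 32.3 FPKM in HFD mice, with a log2 difference of 0.13 (standard error 0.05, adjusted p = 0.0466 by limma). This call was lost without normal mouse 2, 3 or 4 or any 1 of HFD mice 1 to 4 (adjusted p from 0.0598 to 0.111). The library kit keeps the strand, but whether strand was used in counting is not stated. Reads of the stretches that such genes share therefore cannot be told apart, and the level of Evi5l was far above that of Prr36. The exons of Prr36 cover 4891 bp and those of Zmiz1 12523 bp, so most of their length is not shared with these genes.

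Among genes that lie beside the chosen ones without overlap, Igfn1, next to Tnnt2, rose from 1.9 to 3.78 FPKM (log2 difference 0.98, standard error 0.18, adjusted p = 0.00401 by limma). Bcas1, a gene of myelinating oligodendrocytes next to Tshz2, fell from 59.5 to 32.9 FPKM (log2 difference -0.84, standard error 0.15, adjusted p = 0.00352 by limma). Cdc42ep4, next to Sdk2, fell from 18.9 to 11.3 FPKM (log2 difference -0.72, standard error 0.13, adjusted p = 0.00327 by limma). The closest neighbours did not pass the test. Plcd1 lies 1 bp from Vill and had a log2 difference of 0.28 (adjusted p = 0.0792 by limma; 0.0451 without normal mouse 4), and Ephb6, 114 bp from Trpv6, one of 0.28 (adjusted p = 0.176). The calls of the remaining neighbours past the threshold, Rpl38 and RP24-573N21.3 (higher) and Trappc5 (lower), were each lost when single mice were left out. For Rpl38 these were normal mouse 1, 3 or 4 or HFD mouse 1 or 2 (adjusted p from 0.0504 to 0.0604). For RP24-573N21.3 they were normal mouse 2, 3 or 4 or any 1 HFD mouse (0.0544 to 0.107), and for Trappc5 normal mouse 2, 3 or 4 or HFD mouse 1, 2 or 3 (0.0682 to 0.125).

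**Figure D3:**
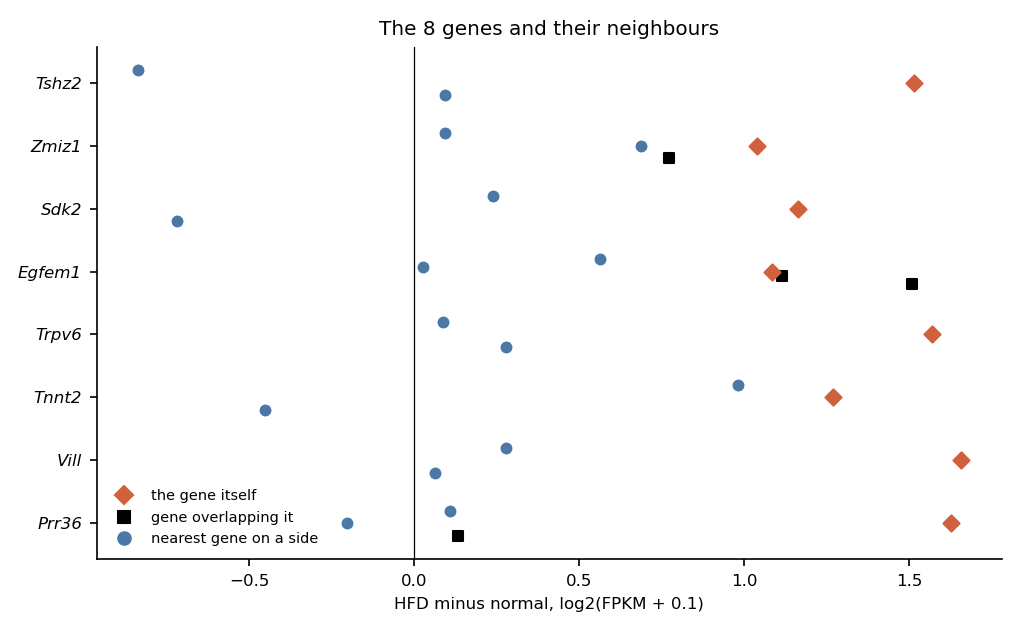
HFD minus normal difference of log2(FPKM + 0.1) for each gene (diamonds), the genes that overlap it (squares) and the nearest gene on each side (circles). The intronic transcripts of Egfem1 lie at 1.51 and 1.11 and the antisense Zmiz1os1 at 0.77, while Bcas1 (-0.84) and Cdc42ep4 (-0.72) lie on the other side of 0.

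Relatives and partners of the genes, in 13 lists by family or pathway, moved about as often as other genes did. Of 107 listed genes other than the chosen ones, 76 were tested and 31 were not in the table. At an adjusted p below 0.05 by limma, 15 (19.7%) were higher and 12 (15.8%) lower, beside 17.7% and 15.3% of all genes tested, and the median log2(FPKM + 0.1) difference was 0.01. A log2 difference over 1 was reached by 2 of them, Tshz3 and Atp2b4.

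Of the transcription regulators, the teashirt gene Tshz3 rose like Tshz2, from 6.13 to 13.1 FPKM (log2 difference 1.12, standard error 0.15, adjusted p = 0.00126 by limma). Its FPKM was 7.5, 4.9, 4.7 and 7.4 in normal mice 1 to 4 and 12.2, 13.9, 13.6 and 12.8 in HFD mice 1 to 4, without overlap. Tshz1 was at 8.65 and 7.05 FPKM and did not pass the test (log2 difference -0.27, adjusted p = 0.131), so 1 of the 2 other teashirt genes rose. In alternatives chosen after seeing the data Tshz1 was called lower, without normal mice 2 and 3 (-0.45, adjusted p = 0.0492) and with the cortical excitatory marker score as a covariate (-0.62, adjusted p just below 0.05). In the PIAS-like family, which holds SUMO ligases, 3 of 5 relatives of Zmiz1 were higher by limma. Zmiz2, its closest relative, rose from 16.8 to 27.8 FPKM (log2 difference 0.72, standard error 0.14, adjusted p = 0.00457), and Pias1 had a log2 difference of 0.33 (adjusted p = 0.00347). The call of Pias3 (log2 difference 0.35, adjusted p = 0.0265) was lost without normal mouse 1, 2 or 3 or HFD mouse 1, 2 or 3 (adjusted p from 0.0508 to 0.0695).

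Of 12 genes of the SUMO pathway itself, 3 were lower by limma; 0 were higher, at an adjusted or an unadjusted p below 0.05. Sumo2 fell by 0.24 on the log2(FPKM + 0.1) scale (adjusted p = 0.00693). Uba2, a subunit of the activating enzyme, fell by 0.20 (adjusted p = 0.00709). The third, Senp6 (log2 difference -0.13, adjusted p = 0.0451), lost its call without normal mouse 2, 3 or 4 or any 1 HFD mouse (adjusted p from 0.0549 to 0.117). Zmiz1 is known as a partner of Notch1 in T cells. Of the 8 Notch receptors and effectors, limma called 0 at an adjusted p below 0.05 and 0 at an unadjusted p below 0.05. Notch1 was at 4.03 FPKM in normal and 4.38 FPKM in high fat diet fed mice.

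Among 9 adhesion molecules related to Sdk2, 5 were higher and 1 lower by limma, with a median log2(FPKM + 0.1) difference of 0.28. Dscaml1 rose from 7.45 to 11.4 FPKM (log2 difference 0.62, standard error 0.08, adjusted p = 0.0012) and Cntn3 from 7 to 10.2 FPKM (0.55, standard error 0.11, adjusted p = 0.00613). Dscam rose by 0.37 on the log2 scale (adjusted p = 0.00235). Cntn4 also rose, by 0.28 (adjusted p = 0.0148; 0.0543 with the mouse number as replicate block). The call of Cntn5 (0.35, adjusted p = 0.0225) was lost without normal mouse 2 or HFD mouse 1, 2 or 4 (adjusted p from 0.0532 to 0.0666). Cntn1, the most abundant of the list, fell from 154.6 to 135.9 FPKM (log2 difference -0.19, adjusted p = 0.00909). Sdk1, the other sidekick, was at 1.9 and 1.6 FPKM and did not pass the test (log2 difference -0.24, adjusted p = 0.135), but was called lower without a variance trend in limma (adjusted p = 0.0447).

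MAGI scaffolds localise sidekicks to synapses, and 1 of 3, Magi2, was higher (log2 difference 0.34, adjusted p = 0.0177 by limma; 0.0509 without normal mouse 2). For Egfem1, 2 of 8 tested genes with EMI or EGF domains were lower. Emid1 fell from 2.38 to 1.38 FPKM (log2(FPKM + 0.1) difference -0.76, adjusted p = 0.00637 by limma). The second lower gene, Megf10 (-0.38, adjusted p = 0.0439), lost its call without normal mouse 2 or 3 or any 1 HFD mouse (adjusted p from 0.057 to 0.112).

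Around Trpv6, the transcellular calcium pathway of epithelia was divided: of 6 tested genes 2 were higher and 3 lower by limma. Atp2b4, a plasma membrane calcium pump, rose from 24.6 to 56.9 FPKM (log2 difference 1.23, standard error 0.15, adjusted p = 0.000864). Its FPKM was 25.4, 18.6, 21.7 and 32.7 in normal mice 1 to 4 and 52.4, 61.9, 52.9 and 60.5 in HFD mice 1 to 4, without overlap. The exchanger Slc8a1 rose from 89.2 to 112.4 FPKM (log2 difference 0.34, adjusted p = 0.00651). The calcium buffer Calb1 fell from 48.3 to 22.2 FPKM (-1.06, standard error 0.20, adjusted p = 0.00457), and the pump Atp2b1 fell by 0.37 on the log2 scale (adjusted p = 0.0146). S100a10, a partner of Trpv6 at the membrane, fell by 0.27 (adjusted p = 0.00777). Calb1 is also abundant in striatal and Purkinje neurons, and in normal mice it was highest in mice 2 and 3, at 58.3 and 65.4 FPKM. S100g, Vdr and Cyp24a1, which belong to the vitamin D arm of the pathway, were not in the table.

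Trpv2 was the only other vanilloid channel in the table, with 6.43 and 7.23 FPKM (log2 difference 0.17, adjusted p = 0.143 by limma; 0.0486 without normal mouse 1), and Trpv1, Trpv3, Trpv4 and Trpv5 were not in it. Of 11 other TRP channels tested, 2 were higher (Trpc4 and Trpc6) and 1 lower (Trpm3), and each of these calls rested on single mice. Trpc4 (log2 difference 0.49, adjusted p = 0.0266) lost its call without normal mouse 2 or HFD mouse 1 or 4 (0.0617 to 0.0714). Trpc6 (0.55, adjusted p = 0.0379) lost it without normal mouse 2 or 3 or HFD mouse 2, 3 or 4 (0.0727 to 0.1). Trpm3 (-0.62, adjusted p = 0.0243) lost it without normal mouse 2 or HFD mouse 1, 2 or 3 (0.0602 to 0.0655).

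The partners of Tnnt2 in the thin filament did not rise with it. Of 3 other troponins tested, limma called 0 higher at an adjusted or an unadjusted p below 0.05, and Tnnc1, the calcium-binding subunit of heart and slow muscle, was lower (10.5 to 6.28 FPKM, log2 difference -0.73, adjusted p = 0.0301 by limma). Its call was lost without normal mouse 1 or 4 or HFD mouse 1, 2 or 4 (adjusted p from 0.0553 to 0.0699). Tnnt1, the slow muscle troponin T, was at 4.63 and 1.75 FPKM (log2 difference -1.17, adjusted p = 0.0517; 0.00319 without normal mouse 4). Tnni1, the neighbour of Tnnt2 on chromosome 1, was at 2.6 and 1.88 FPKM (log2 difference -0.45, adjusted p = 0.0565; 0.0246 without HFD mouse 3 and 0.0458 without normal mouse 4). The heart troponin Tnni3 was not in the table. For the 4 tropomyosins, limma called 0 at an adjusted p below 0.05 and 2 (lower) at an unadjusted p below 0.05. Tpm4 was called lower without normal mouse 1 (log2 difference -0.30, adjusted p = 0.022 by limma). With quantile normalization Tnnt1, Tnni1 and Tpm1 were called lower (adjusted p = 0.0444, 0.043 and 0.0476 by limma). Without normal mice 2 and 3, chosen after seeing the data, Tpm1 was called lower too (-0.24, adjusted p = 0.0231).

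Vill had 4 tested relatives in the gelsolin superfamily, of which limma called 1 lower and, at an adjusted or an unadjusted p below 0.05, 0 higher. Gsn, which severs and caps actin filaments and is abundant in oligodendrocytes, fell from 52.5 to 27.2 FPKM (log2 difference -0.94, standard error 0.10, adjusted p = 0.000644). Its lowest normal mouse, mouse 4 at 42.4 FPKM, was above all high fat diet fed mice. Capg, Flii and Svil had log2 differences of 0.10, 0.04 and -0.11 and did not pass the test, and Vil1, Avil and Scin were not in the table. Prr36 has no list of relatives.

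**Figure D4:**
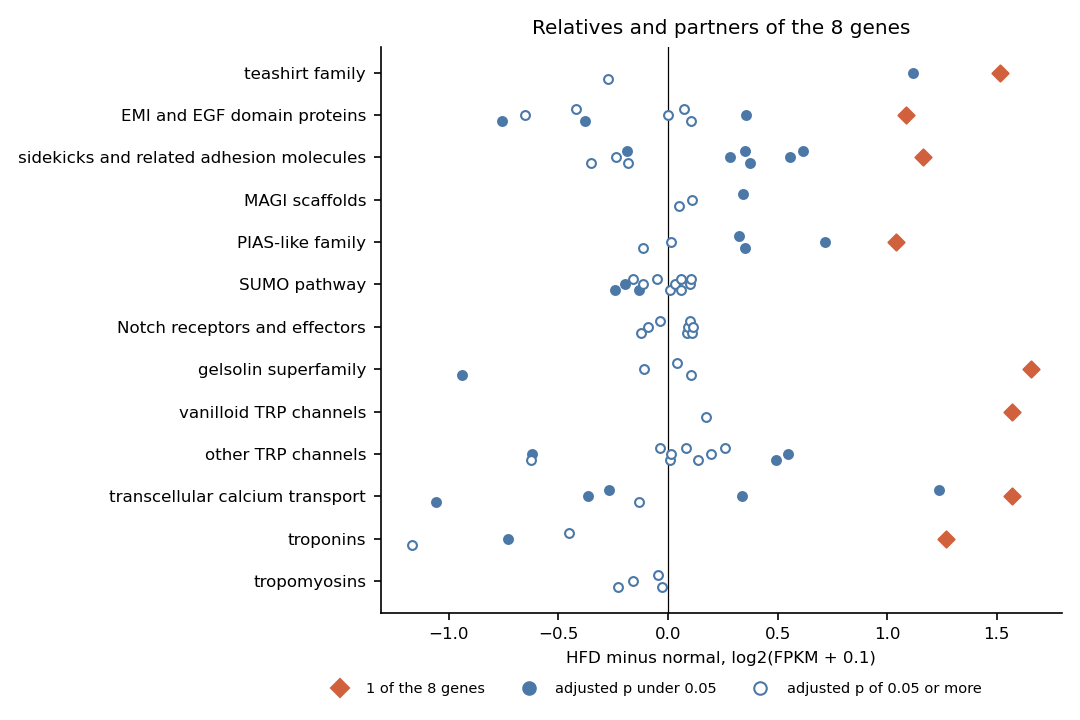
HFD minus normal difference of log2(FPKM + 0.1) for the tested genes of 13 lists (circles, filled where the adjusted p by limma is below 0.05) and for the chosen genes (diamonds). The 76 relatives spread on both sides of 0, with 15 higher and 12 lower, and Tshz3 (1.12) and Atp2b4 (1.23) are the circles above 1.

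Markers of cell types that could carry these genes were also counted. Of the markers of layer 5 near-projecting neurons other than Tshz2, Vwc2l rose from 3.5 to 7.05 FPKM (log2 difference 0.98, standard error 0.11, adjusted p = 0.000744 by limma). Trhr was at 1.38 and 2.45 FPKM (log2 difference 0.83, adjusted p = 0.0936; 0.0468 without HFD mouse 3), and Slc17a8 was not in the table. The list sum without Tshz2 was 3.9, 5, 5.6 and 5 FPKM in normal mice 1 to 4 and 9.7, 11.4, 7 and 9.9 FPKM in HFD mice 1 to 4, with Vwc2l the more abundant. HFD mouse 3 was the lowest of its diet, but the diets did not overlap. Whether Tshz2 and Vwc2l moved in the same cells was not tested.

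Of 10 sarcomere and other markers of cardiac muscle, Actc1, Myh6, Myl2, Myl3, Myl7 and Nppa were not in the table, which lacks genes of low level. Of the 4 that were, 2 were higher and 1 lower by limma. Myh7 rose from 2.48 to 3.93 FPKM (log2(FPKM + 0.1) difference 0.64, adjusted p = 0.00561) and the calcium release channel Ryr2, also a neuronal gene, from 29.3 to 38.6 FPKM (0.40, adjusted p = 0.0045). Mybpc3 fell from 2.35 to 0.175 FPKM (-2.71, standard error 0.61, adjusted p = 0.00944), and in normal mice was highest in mice 2 and 3. In alternatives chosen after seeing the data its call was lost without these mice (log2 difference -1.57, adjusted p = 0.0564) and with the cerebellar (-0.36, adjusted p = 0.633) or cortical excitatory marker score as a covariate (-0.86, adjusted p = 0.444). Myl4 did not pass the test (log2 difference -0.36, adjusted p = 0.228 by limma). In the same alternatives Myl4 was called lower without normal mice 2 and 3 (-0.72, adjusted p = 0.0344). With the cerebellar or cortical excitatory score it was called lower too (-1.07, adjusted p = 0.0357, and -1.11, adjusted p = 0.0127). For 5 vascular smooth muscle markers limma called 0 at an adjusted p below 0.05 and 0 at an unadjusted p below 0.05. Pericytes had 1 of 6 higher (Cspg4, 0.37, adjusted p = 0.00493) and 1 lower (Rgs5, -0.27, adjusted p = 0.0243), and the call of Rgs5 was lost without HFD mouse 1 (adjusted p = 0.0664) or normal mouse 2 (adjusted p = 0.0622). None of the 7 epithelial markers, which would go with Trpv6 and Vill in gut and kidney, was in the table.

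Markers of cortical excitatory neurons were all in the table, as a cortex sample should show. Of 8 markers, 6 were higher by limma, with a median log2(FPKM + 0.1) difference of 0.46. Their summed FPKM was 685.7, 516.6, 504.7 and 700.5 in normal mice 1 to 4 and 740.8, 793.9, 910 and 719 in HFD mice 1 to 4, with the glutamate transporter gene Slc17a7 the most abundant. Normal mice 2 and 3 were the lowest and the diets did not overlap. Tbr1 rose by 1.04 on the log2 scale (adjusted p = 0.00442), while Neurod6 (0.26, adjusted p = 0.182) and Nrn1 (-0.08, adjusted p = 0.502) did not pass the test. Deep layer markers had 5 of 12 higher and 2 lower, so they moved in both directions. Of the higher ones, Fezf2 had a log2 difference of 1.23 (adjusted p = 0.00141) and Ntsr1 one of 1.04 (adjusted p = 0.00411). The lower ones were Syt6, with a log2 difference of -1.05 (adjusted p = 0.00112), and Foxp2, with -0.63 (adjusted p = 0.0194). Their sum was 135.6, 122.6, 116.8 and 142.9 FPKM in normal mice 1 to 4 and 173.9, 159, 166.7 and 174 FPKM in HFD mice 1 to 4, with Crym the most abundant. Upper layer markers had 2 of 7 higher. Tbr1 stands in the excitatory list and in the deep layer list.

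Markers of other brain regions were counted in the same way. All 9 striatal markers tested were lower by limma, with a median log2(FPKM + 0.1) difference of -1.81. Their sum was 480, 393.8, 372.7 and 266.1 FPKM in normal mice 1 to 4 and 94.6, 96.6, 111.4 and 97.3 FPKM in HFD mice 1 to 4, with Penk the most abundant; Drd1 was not in the table. Cerebellar markers had 4 of 6 lower and summed to 27.8, 264.5, 351.7 and 98.4 FPKM in normal mice 1 to 4 and to 23.7, 26.4, 19.7 and 25.2 FPKM in HFD mice 1 to 4. Calb2 was their most abundant gene, and Pcp2 was not in the table. Gabra6 is part of the sum but was not tested, since it was at 0 in HFD mouse 1. Its FPKM was 1.7, 46.5, 61.7 and 12.2 in normal mice 1 to 4 and 0, 0.1, 0.1 and 0.2 in HFD mice 1 to 4. Normal mice 2 and 3 stood highest in the cerebellar sum, while normal mouse 1 was close to the high fat diet fed mice. Thalamic markers had 2 of 6 lower, with sums of 44.2, 100.8, 89 and 35.9 FPKM in normal mice 1 to 4 and of 38.7, 31.7, 27.8 and 35.2 FPKM in HFD mice 1 to 4, Slc17a6 being the most abundant.

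All 8 oligodendrocyte markers were lower by limma, with a median log2(FPKM + 0.1) difference of -0.87. Their sum was 2833.7, 3462.7, 3117.4 and 2103.7 FPKM in normal mice 1 to 4 and 1509.7, 1451.3, 2019.1 and 1462.9 FPKM in HFD mice 1 to 4, with Mbp the most abundant. Choroid plexus markers had 2 of 6 lower, and their sum, nearly all Ttr, was 668.1, 567.7, 728.5 and 343.9 FPKM in normal mice 1 to 4 and 77, 21.2, 27.6 and 943.9 FPKM in HFD mice 1 to 4. HFD mouse 4 was the highest of all mice in this sum, and the remaining HFD mice were the lowest. All 5 blood markers were lower, with sums of 377.5, 479.7, 363.4 and 239.2 FPKM in normal mice 1 to 4 and of 233.6, 219, 199.1 and 247.4 FPKM in HFD mice 1 to 4, where Hbb-bs was the most abundant and the diets overlapped.

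The other cell types moved less or in both directions. GABAergic markers had 2 of 8 higher and 4 lower, hippocampal markers 1 of 5 higher and 2 lower, and astrocyte markers 1 of 7 higher and 2 lower by limma. Endothelial markers had 1 of 7 higher and 2 lower, and meningeal fibroblast markers 3 of 6 lower. Of 6 microglial markers, limma called 0 at an adjusted p below 0.05 and 1 (higher) at an unadjusted p below 0.05.

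Alternatives chosen after seeing the data gave the differences without the mice highest in cerebellar markers or with a marker score in the fit. The log2(FPKM + 0.1) differences of the 8 genes ran from 1.04 to 1.66 as first computed, and from 0.98 to 1.40 without normal mice 2 and 3. With the cerebellar marker score as a covariate they ran from 0.96 to 1.35, and with the cortical excitatory marker score from 0.88 to 1.33. Vill went from 1.66 to 1.12 with the cerebellar and 1.04 with the cortical excitatory score, and Trpv6 from 1.57 to 1.04 and 1.14. The part of striatal, oligodendrocyte, choroid plexus and blood RNA in the differences was not tested.

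The counts of limma calls over all genes fell with the same alternatives. With the cerebellar score as a covariate limma called 373 genes higher and 312 lower, with the cortical excitatory score 471 and 429, and without normal mice 2 and 3 it called 1528 and 1215. A log2 difference over 1, first reached by 112 genes, was reached by 133 with the cerebellar and 129 with the cortical excitatory score. Without normal mice 2 and 3 it was reached by 87. A score in the fit also raised the standard errors, by a median ratio of 1.61 over all genes with the cerebellar and 1.49 with the cortical excitatory score, so a call can be lost while the difference stays. Of the 27 relatives called, 4 kept their call and direction with the cerebellar score, 6 with the cortical excitatory score and 17 without normal mice 2 and 3. Atp2b4, Atp2b1, Gsn and Tnnc1 kept theirs with either score. Tshz3 kept it with the cortical excitatory score but not with the cerebellar score (log2(FPKM + 0.1) difference 0.58, adjusted p = 0.0532), and the intronic transcripts of Egfem1 and Vwc2l kept theirs with both.

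Of the 23 relatives that lost their call with the cerebellar score, 4 had a difference at least as large as before, 7 one smaller by up to 1.5 times and 12 one smaller by more. With the cortical excitatory score 21 lost it, and these numbers were 2, 5 and 14, the last with the turned Trpc6 and Trpm3. Among relatives that lost their call with the cerebellar score, the differences as large or larger were those of Sumo2 (-0.30), Uba2 (-0.24), S100a10 (-0.35) and Cntn5 (0.42). Among those that kept it with either score, Atp2b1 went from -0.37 to -0.71 with the cerebellar and -0.64 with the cortical excitatory score. Tnnc1 went from -0.73 to -1.32 and -1.38 in the same order. The differences of Atp2b4 (1.23 to 0.94 and 0.85) and Gsn (-0.94 to -0.87 and -0.78) became smaller. Calb1 went from -1.06 to -0.30 with the cerebellar score (adjusted p = 0.251) and to -0.35 with the cortical excitatory score (adjusted p = 0.167). In the same order Cntn3 went from 0.55 to 0.22 and 0.21 (adjusted p = 0.36 and 0.298), Zmiz2 from 0.72 to 0.43 and 0.28 (0.228 and 0.21), Magi2 from 0.34 to 0.05 and 0.02 (0.771 and 0.826) and Cntn4 from 0.28 to 0.12 and 0.08 (0.515 and 0.555).

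Of the neighbours and marker genes given above, Bcas1, Cdc42ep4, Igfn1, Zmiz1os1, Evi5l, Rpl38, RP24-573N21.3, Trappc5, Myh7, Ryr2, Mybpc3, Cspg4, Rgs5 and Ntsr1 lost their calls with each score. The log2(FPKM + 0.1) difference grew with the cerebellar and the cortical excitatory score for Zmiz1os1 (0.77 to 0.84 and 0.97), Rpl38 (0.24 to 0.30 and 0.34) and Rgs5 (-0.27 to -0.45 and -0.35). It shrank by less than 1.5 times for Cspg4 (0.37 to 0.28 and 0.31), Myh7 (0.64 to 0.46 and 0.57) and Ntsr1 (1.04 to 0.72 and 0.82). It shrank further for Cdc42ep4 (-0.72 to -0.31 and -0.30), Igfn1 (0.98 to 0.51 and 0.51), Ryr2 (0.40 to 0.23 and 0.17), Evi5l (0.13 to 0.07 and 0.08), RP24-573N21.3 (0.69 to 0.11 and 0.30), Trappc5 (-0.20 to -0.05 and -0.04) and Mybpc3 (-2.71 to -0.36 and -0.86), and lay near that limit for Bcas1 (-0.84 to -0.59 and -0.55). Fezf2 lost its call with the cerebellar score (1.23 to 0.63, adjusted p = 0.0649), as did Tbr1 (1.04 to 0.48, adjusted p = 0.267), which is itself part of the cortical excitatory score.

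**Figure D5:**
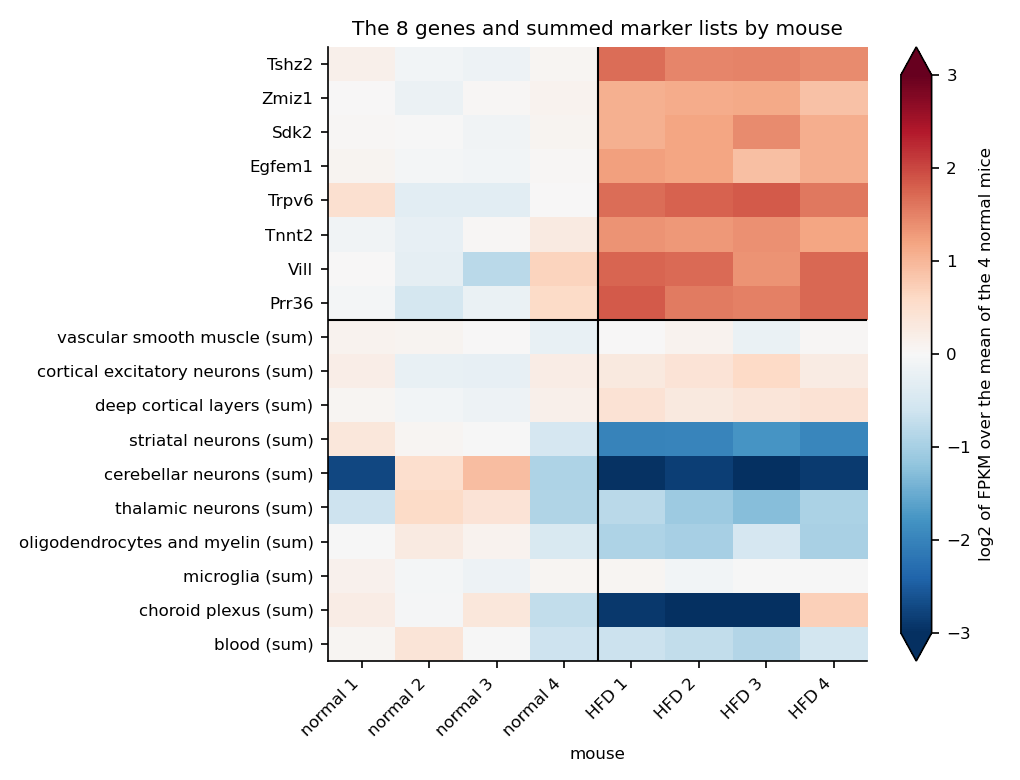
Each cell is the log2 of a gene's FPKM, or of the summed FPKM of a marker list, over the mean of the 4 normal mice, with 1 column per mouse and colours limited to -3 and 3. The chosen genes are red in all 4 high fat diet fed mice, while the striatal sum (94.6 to 111.4 FPKM) is blue in them and the cerebellar sum is highest in normal mice 2 and 3 (264.5 and 351.7 FPKM).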

How the data were processed

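Cortex RNA of 4 mice per diet was sequenced by the authors, with a library for each mouse. The authors deposited FPKM from Cuffnorm on GENCODE M17 (GRCm38.p6), after FastQC, trimming with Trimmomatic and alignment to mm10 with STAR, in versions not given. Depth is unknown, and the FPKM sums per mouse were between 562431 and 639142. The filter (mean over mice 1 FPKM or more, 0 in no mouse) kept 13982 of 13996 genes. On these, limma 3.58.1 in R 4.3.3 compared log2(FPKM + 0.1) of the diets, two-sided, with a variance trend and Benjamini-Hochberg adjustment, at a threshold of 0.05. The procedure was tested on simulated data. Exact permutations used scipy 1.17.1 and numpy 2.4.6 in Python 3.11.15, tables pandas 2.3.3 and figures matplotlib 3.10.9. Gene positions come from GENCODE M21, a later release than that of the authors, which held 13977 of the genes.

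Named were the 8 genes, the genes of 13 lists of relatives and 20 lists of cell type markers, the 2 genes most like each gene (mean of at least 5 FPKM), overlapping and nearest genes, and the 10 largest increases without overlap. The 8 genes and the lists were chosen with earlier results of these data known. Alternatives were added constants of 1 and 0.01, a mean of at least 5 FPKM, no filter, quantile normalization, rescaling by median ratios, a fit with the mouse number as block, a fit without variance trend and each mouse left out. For the 8 genes the log2 ratio of mean FPKM was another. Without normal mice 2 and 3, and with a cerebellar or a cortical excitatory marker score as a covariate, were added after seeing the data. The second quantification by Salmon and edgeR was not used.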

Additional observations from a re-analysis of the deposited data

Results flagged for a closer look

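In 94 groups of 4 mice, made of the 8 genes, 20 neighbours and 19 summed marker lists in each diet, 9 had a mouse whose gap to the nearest other mouse was so large a share of the group's range that it passed Dixon's critical value. Chance gives this in about 1 in 20 groups, and the groups share mice. Among the chosen genes this was so for Vill, at 4.0 FPKM in high fat diet fed mouse 3 and 5.1 to 5.3 FPKM in the other high fat diet fed mice. The same mouse stood apart for Bcas1 (39.2 FPKM, the others 30.3 to 31), Ephb6 (56.3 FPKM, the others 41.4 to 43.8), the striatal marker sum (111.4 FPKM, the others 94.6 to 97.3) and the oligodendrocyte marker sum (2019.1 FPKM, the others 1451.3 to 1509.7). High fat diet fed mouse 4 stood apart for the choroid plexus marker sum, with 943.9 FPKM where the others had 21.2 to 77. High fat diet fed mouse 1 stood apart for the astrocyte marker sum (1231.5 FPKM, the others 1161.5 to 1172.2). Cdc42ep4 was at 11.7 FPKM in high fat diet fed mouse 1 and at 11.1 to 11.2 FPKM in the others, which differ from each other by no more than the rounding step of 0.1 FPKM. Ctdspl, the gene on the low-coordinate side of Vill, was at 5.9 FPKM in normal mouse 3 and at 8.2 to 8.4 FPKM in the other normal mice. Without high fat diet fed mouse 3, the log2(FPKM + 0.1) differences of the 8 genes ran from 1.01 to 1.75.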

How the results depend on the processing

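The log2 difference of the 8 genes lay between 0.82 (Trpv6 with an added constant of 1) and 1.90 in 136 combinations of gene and alternative. Of these, 119 moved by less than the spread between mice and 17 moved by more. Each of the 17 came with the added constant of 1 or with a marker score, the scores being chosen after seeing the data. The constant of 1 moved all but Tshz2 and Zmiz1, and the cortical excitatory score all but Egfem1. The cerebellar score moved Tshz2, Egfem1, Vill and Trpv6. With an added constant of 1, 4 of the 8 had a difference over 1, and with either marker score 6 had. With a mouse left out, 7 to 8 had. Of 27 calls among relatives, 17 held in each alternative not chosen after seeing the data that tested them. With a mean of at least 5 FPKM, 2 of the 27, Emid1 and Pias3, were not tested, and Emid1 is among the 17. FPKM has no counts, so precision at low level is limited by rounding.

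Some counts moved by over 1.5 times. With a mean of at least 5 FPKM fewer genes were tested, and without normal mice 2 and 3 there were fewer mice. Why the counts moved was not tested. With the cerebellar score in the fit, which was chosen after seeing the data, 373 genes were higher and 312 lower, 182 and 119 of them by over 50%, and 2 relatives were higher and 3 lower. With the cortical excitatory score, also chosen after seeing the data, it was 471 and 429, 180 and 152 by over 50%, and 2 relatives were higher and 5 lower. Without both normal mice 2 and 3, chosen after seeing the data too, it was 1528 and 1215, 365 and 239 by over 50%, and 9 relatives were higher. With a mean of at least 5 FPKM, 250 were higher and 172 lower by over 50%, and 28 had a log2 difference over 1. With an added constant of 1 it was 335 and 268, and 31. Among genes with a call in either fit, direction turned for Megf11 with the cerebellar score (0.61, adjusted p = 0.049) and for Trpc6 (-0.046) and Trpm3 (0.017) with the cortical excitatory score.

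With the mouse number as replicate block, 1840 genes were higher and 1550 lower, 539 and 357 by over 50%. The number is only a name: same-numbered mice had a correlation of -0.0382, -0.0275, -0.109 and -0.0717 across genes after subtraction of the diet means, and genes are not independent replicates. With 1 mouse left out, 1804 to 2476 genes were higher and 1475 to 2143 lower, 10 to 15 relatives were higher and 8 to 15 lower, and the median r of the 28 pairs lay between 0.272 and 0.501.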
